A study of Mus musculus with 6 samples.

Results

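The genes described are *Il10*, which encodes the cytokine interleukin-10 (IL-10), and *Il10ra* and *Il10rb*, which encode the chains of its receptor. They were chosen by name, from every spot that was not a control and carried 1 of these names in the scanner files, and all 3 were found among the 34786 gene names tested. Each gene had 1 probe. The probe of *Il10* was printed as 10 spots on each array and those of *Il10ra* and *Il10rb* as 1 spot.

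IL-10 is a secreted cytokine that limits inflammation, and activated macrophages both make it and respond to it. It binds IL-10Rα, the product of *Il10ra*, which pairs with IL-10Rβ, the product of *Il10rb* and a chain that receptors of several related cytokines share. The kinases JAK1 and TYK2, which are bound to these chains, then activate the transcription factor STAT3, and STAT3 target genes restrain the output of inflammatory cytokines.

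Bone marrow–derived macrophages of wild type female C57/B6 mice were compared in 3 groups of 2 arrays, the duplicates coming from independent experiments. The labels give the mice an age of 6 to 8 weeks, and the cells had matured for 7 days in medium conditioned by L929 cells. The paper gives an older range of ages. LPS cells received lipopolysaccharide, a bacterial ligand of TLR4, for 4 h, at 100 ng/ml in the description of the series and at the same number per microliter in the sample labels. LPS+inhibitor cells received 10 μM HBX41,108, an inhibitor of the deubiquitinase USP7, for 30 min before the same LPS treatment. No source used here says whether the other cells received its solvent, so a difference of LPS+inhibitor from another group includes any effect of solvent. The 6 arrays lay on 1 slide, each with a first and a second position number. The second number was shared within each group and differed between groups, so slide position and group cannot be told apart. The first number was 1 for replicate 1 of every group and 2 for replicate 2.

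The cells carried the listed macrophage markers. All 7 of 7 (*Adgre1*, *Csf1r*, *Cd68*, *Itgam*, *Lyz2*, *Mertk*, and *Fcgr1*) were well above background, as the scanner software defines it, on all 6 arrays. Their summed normalized signal lay between 508767 and 676999.7, and the brightest probe was that of *Csf1r*, the receptor that macrophages need for survival. The sum is carried by the brightest probes, and single markers differed between groups on their brightest probe. *Fcgr1* fell by 1.60 in LPS+inhibitor minus LPS (limma adjusted p = 0.0317), a call lost in all 6 fits that left out 1 array (−1.74 to −1.47). *Itgam* fell by 0.66 with LPS (limma adjusted p = 0.0233), a call lost under 75th percentile scaling (−0.22), with the mean of its probes (−0.38), and without either untreated or either LPS array (−0.69 to −0.62). *Mertk* differed by −1.20 in LPS+inhibitor minus LPS, which did not pass.

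The probes are shown because every value of the 3 genes rests on them. Each holds 60 bases, of which the first 30 are printed, and no other probe on the array shared a run of 20 bases with any of them on either strand.
*Il10* probe: ggaaaacctcgtttgtacctctctccgaaa
*Il10ra* probe: gtcatgaccctaatctggtacgagagctcc
*Il10rb* probe: gtaatttgagccctttgtgctcactaaaac
On mouse genome build mm9 the whole probes lie at chr1:132920943-132921002 for *Il10*, chr9:45062237-45062296 for *Il10ra*, and chr16:91425744-91425803 for *Il10rb*. The files do not say which part of the transcript each probe covers. G or C made up 41.7% of the *Il10* probe, 53.3% of the *Il10ra* probe, and 35.0% of the *Il10rb* probe. The 3 probes were well above background on all 6 arrays, and so were all 10 spots of *Il10*.

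*Il10*, the ligand, lay at a normalized log2 signal of 6.23 and 5.60 on the untreated arrays, replicate 1 first. It reached 9.39 and 8.41 with LPS, and 7.65 and 7.19 with LPS+inhibitor. The groups did not overlap, with LPS highest, LPS+inhibitor between, and untreated lowest, and replicate 1 was the higher array in every group. The untreated mean was 5.92 ± 0.44 (SD, n = 2), the LPS mean 8.90 ± 0.69, and the LPS+inhibitor mean 7.42 ± 0.33. Before normalization, the median spot signal was 84.7 and 74.2 on untreated arrays, 546 and 345 on LPS arrays, and 162 and 136 on LPS+inhibitor arrays. The SD between the repeated spots of 1 array was at most 0.20 on the log2 scale, which describes the measurement and not the spread between samples.

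*Il10* rose with LPS by 2.98 on the log2 scale, a 7.91-fold increase (standard error 0.44, 95% confidence interval 1.76 to 4.20, limma adjusted p = 0.0212). The replicate 1 arrays differed by 3.16 and the replicate 2 arrays by 2.81. The log2 difference of LPS+inhibitor minus LPS was −1.48, or 2.79-fold lower (standard error 0.44, interval −2.70 to −0.26), with −1.74 and −1.22 between arrays of the same replicate number. It was lower on both arrays but did not pass the threshold of 0.05 (limma adjusted p = 0.150). LPS+inhibitor minus untreated was 1.50 (interval 0.28 to 2.72, limma adjusted p = 0.128), which did not pass. The RNA came from whole cultures, in which fewer cells making *Il10* and less *Il10* RNA per cell cannot be told apart.

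The calls for *Il10* depended on the arrays and on the processing. The rise with LPS passed when LPS replicate 2 was left out and in none of the other 5 fits that left out 1 array (2.50 to 3.47 on the log2 scale), and over 15 alternatives its adjusted p ranged from 0.00277 to 0.102. The difference between LPS+inhibitor and LPS passed in 3 of 15 alternatives, with an adjusted p from 0.0421 to 0.371 and a value from −1.97 without LPS replicate 2 to −0.99 without LPS replicate 1. With 2 arrays on each side, the smallest two-sided p that exact permutation allows is 0.333.

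*Il10ra*, the chain that binds the ligand, read 12.90 and 12.56 on untreated arrays (log2), 13.59 and 13.64 on LPS arrays, and 12.93 and 12.70 on LPS+inhibitor arrays. Both LPS arrays lay above the other 4, while untreated and LPS+inhibitor arrays overlapped. Means were 12.73 ± 0.24 (SD, n = 2), 13.61 ± 0.037, and 12.81 ± 0.16 in the same order. The signal before normalization was 7084 and 8142, then 12036 and 15022 with LPS, and 5940.2 and 6499 with LPS+inhibitor. *Il10ra* rose with LPS by 0.88 on the log2 scale, or 1.85-fold (standard error 0.15, interval 0.46 to 1.31, limma adjusted p = 0.0310), by 0.69 between replicate 1 arrays and 1.08 between replicate 2 arrays.

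With LPS+inhibitor, *Il10ra* differed from LPS by −0.80, or 1.74-fold (standard error 0.15, interval −1.22 to −0.37), and by −0.66 and −0.94 between arrays of the same number. The limma adjusted p of 0.0620 did not pass the threshold. LPS+inhibitor minus untreated was 0.09 (interval −0.34 to 0.51, limma adjusted p = 0.855), and the sign of this small value changed in 3 of 15 alternatives. The rise with LPS passed in none of the 6 fits that left out 1 array (0.71 to 1.05, adjusted p over all alternatives 0.00563 to 0.120). The difference between LPS+inhibitor and LPS passed in 4 of 15 alternatives (adjusted p 0.0112 to 0.193).

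*Il10rb*, the shared chain, moved the other way with LPS. It read 13.15 and 13.03 on untreated arrays (log2), 12.42 and 12.59 on LPS arrays, and 12.31 and 12.18 on LPS+inhibitor arrays. Untreated cells were highest and LPS+inhibitor cells lowest, with no overlap between groups. The means were 13.09 ± 0.087 (SD, n = 2), 12.51 ± 0.12, and 12.24 ± 0.091, and the signals before normalization were 8442 and 10955, 5101 and 6941, and 3881 and 4481. *Il10rb* fell by 0.58 on the log2 scale with LPS, or 1.50-fold (standard error 0.10, interval −0.86 to −0.30, limma adjusted p = 0.0310), and by 0.73 and 0.44 within replicate numbers. LPS+inhibitor minus LPS was −0.26 (interval −0.54 to 0.014, limma adjusted p = 0.241). Against untreated cells, LPS+inhibitor cells had fallen by 0.85, or 1.80-fold (standard error 0.10, interval −1.12 to −0.57, limma adjusted p = 0.0175), a value seen in both replicate numbers (−0.84 and −0.85).

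The fall of *Il10rb* with LPS rests on how arrays are scaled. When each array was scaled to its 75th percentile in place of quantile normalization, the median difference of all gene names between LPS and untreated cells moved to 0.40 and that between LPS+inhibitor and untreated cells to 0.44. Under that scaling *Il10rb* differed by −0.14 between LPS and untreated cells (limma adjusted p = 0.326, range over alternatives 0.00856 to 0.326), which is −0.55 relative to the median of all genes. The median of the 15612 genes well above background on every array was 0.083 under that scaling and −0.18 under quantile normalization, and relative to it *Il10rb* differed by −0.23 and −0.40. The fall against untreated cells with LPS+inhibitor still passed under 75th percentile scaling (−0.58). *Il10* and *Il10ra* rose with LPS by 3.04 and 1.37 under that scaling, or 2.64 and 0.97 relative to the median of all genes and 2.96 and 1.29 relative to that of genes well above background. The fall with LPS passed in none of the 6 fits with an array left out (−0.66 to −0.50), and the fall with LPS+inhibitor against untreated cells lost its call without untreated replicate 1 (−0.78), untreated replicate 2 (−0.91), or LPS+inhibitor replicate 2 (−0.78).

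**Figure D1:**
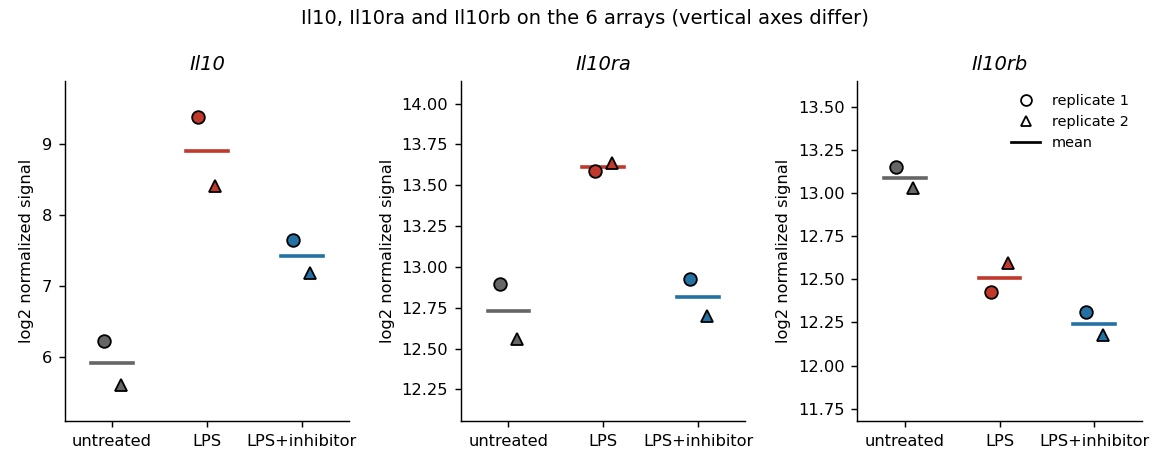
Normalized log2 signal of *Il10*, *Il10ra*, and *Il10rb* (vertical axes, which differ) in untreated, LPS, and LPS+inhibitor cells, with circles for replicate 1, triangles for replicate 2, and lines for group means. *Il10* means are 5.92, 8.90, and 7.42, *Il10ra* is highest on the LPS arrays (13.59 and 13.64), and *Il10rb* is highest on the untreated arrays (13.15 and 13.03); the *Il10rb* gap between LPS and untreated cells is −0.14 under 75th percentile scaling.

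**Figure D2:**
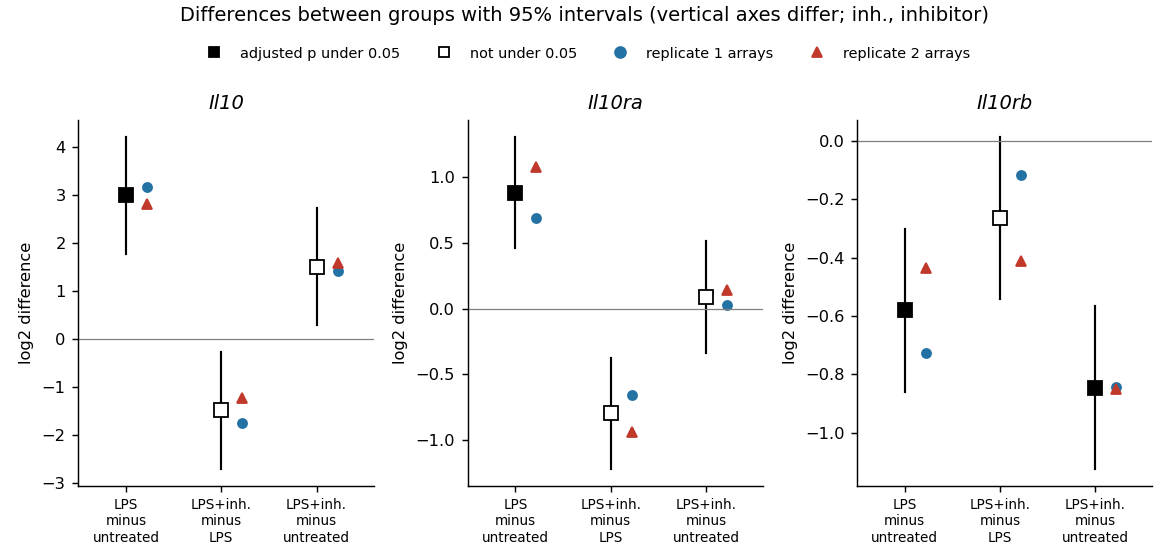
Log2 differences between groups for the 3 genes (squares, filled where the limma adjusted p is under 0.05) with 95% confidence intervals (lines), and the same differences between replicate 1 arrays (circles) and replicate 2 arrays (triangles). *Il10* differs by 2.98, −1.48, and 1.50 and *Il10ra* by 0.88, −0.80, and 0.09, while *Il10rb* lies below 0 in all 3 comparisons.

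Set against all genes, 7.98% of the gene names tested were called higher and 12.8% lower in LPS minus untreated. In LPS+inhibitor minus LPS, 5.52% were called higher and 4.27% lower, and in LPS+inhibitor minus untreated 6.16% were higher and 8.71% lower. These shares depend on scaling, since under 75th percentile scaling 12150 gene names were higher and 4048 lower with LPS, against 2775 and 4443 under quantile normalization. Of the 3 genes, *Il10* and *Il10ra* were called higher and *Il10rb* lower with LPS. Between LPS+inhibitor and LPS, limma called 0 of the 3, and 2 had an unadjusted p under 0.05. Over all gene names, 4989 higher and 4060 lower ones had an unadjusted limma p under 0.05 in that comparison. *Il10rb* was called lower in LPS+inhibitor minus untreated. The log2 difference of *Il10* between LPS and untreated cells exceeded that of 98.5% of all gene names. That of *Il10ra* exceeded 89.8% and that of *Il10rb* 19.1%. In LPS+inhibitor minus LPS, 3.29% of all gene names had a lower value than *Il10*, 9.64% a lower value than *Il10ra*, and 24.6% a lower value than *Il10rb*. Among the 2775 genes called higher with LPS, 21.9% had a lower value than *Il10* in LPS+inhibitor minus LPS and 48.7% a lower value than *Il10ra*. These comparisons share the LPS arrays, so their values are not independent of each other.

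The genes of the pathway around these 3 were taken from lists of 53 names, of which 52 were measured (*Ifnl2* was not found by name) and 46 were well above background on at least 1 array. With LPS, 27 of the 52 rose and 4 fell, and the median log2 difference was 1.02, against 0.0016 over all gene names. Under 75th percentile scaling 35 rose and 3 fell. In LPS+inhibitor minus LPS, 7 rose and 14 fell, with a median of −0.41 against 0.00092 over all gene names. Of the 27 that rose with LPS, 11 were called lower with the inhibitor and 2 higher, and of all 2775 genes called higher with LPS these were 1027 (37.0%) and 111. A gene picked for high LPS arrays is compared with the same arrays in LPS+inhibitor minus LPS, which favors a lower value. Compared with untreated cells, LPS+inhibitor cells had 22 higher and 4 lower. A gene with several probes is given by its brightest.

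The calls of the pathway genes in LPS+inhibitor minus LPS depended on which arrays were fitted. When only these 2 groups entered the fit, 34 of the 52 had an unadjusted limma p under 0.05, against 8004 of all gene names. By limma 0 of the 52 passed the threshold after adjustment. Without untreated replicate 1 or 2 the count was also 0, with 34 at an unadjusted p under 0.05 each time, and it was 5 without LPS replicate 1, 5 without LPS replicate 2, and 10 without LPS+inhibitor replicate 1. With LPS, 17 passed without untreated replicate 2, 16 without LPS replicate 1, and 19 without LPS replicate 2.

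Genes of receptor signalling were higher with LPS than without it, except that *Jak1* passed in neither comparison (0.30 and −0.25). *Tyk2*, the kinase bound to IL-10Rβ, rose by 0.98 with LPS and fell by 1.67 with the inhibitor (3.19-fold, limma adjusted p = 0.0121). *Stat3*, the main factor downstream of IL-10, rose by 1.10 with LPS and differed by −0.98 with the inhibitor, which did not pass (limma adjusted p = 0.0503), and its dimmer probe behaved alike (1.72 and −1.17). *Socs3* and *Socs1*, which encode feedback inhibitors of cytokine receptors, rose by 7.91 and 7.45 with LPS, and differed by −1.56 and −1.72 with the inhibitor without passing.

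Of 10 genes known to respond to IL-10 in macrophages, 6 rose with LPS, and with the inhibitor 2 rose and 2 fell (medians 1.29 and 0.02). *Bcl3*, a nuclear IκB protein that restrains *Tnf* transcription, rose by 2.20 and then fell by 0.98 with the inhibitor (limma adjusted p = 0.0353). *Nfil3*, a repressor of *Il12b*, rose by 1.99 and fell by 0.97 (limma adjusted p = 0.0261). *Hmox1*, which encodes the heme-degrading enzyme heme oxygenase, went the other way. Its untreated arrays read 14.67 and 14.24 (log2), its LPS arrays 13.85 and 13.30, and its LPS+inhibitor arrays 18.06 and 18.15, a rise over LPS of 4.53 or 23.1-fold (standard error 0.25, limma adjusted p = 0.0113), and its dimmer probe rose by 5.02. *Il4ra* rose by 0.84 with the inhibitor on its brighter probe and differed by 0.20 on its dimmer probe, which did not pass. *Il1rn*, *Socs3*, and *Zfp36* rose with LPS (2.04, 7.91, and 2.47), while *Ddit4*, *Etv3*, and *Sbno2* passed in neither comparison.

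Regulators of *Il10* expression formed the longest list, and they split in direction with the inhibitor. With LPS, 9 of 17 rose and 3 fell, and in LPS+inhibitor minus LPS 5 rose and 6 fell (medians 1.06 and −0.11). *Maf* encodes c-Maf, a transcription factor that drives *Il10* in macrophages. Its untreated arrays read 12.48 and 12.37 (log2), its LPS arrays 12.62 and 12.64, and its LPS+inhibitor arrays 10.68 and 10.64. It fell by 1.97 with the inhibitor, or 3.91-fold (standard error 0.067, limma adjusted p = 0.00987), and its dimmer probe fell by 1.28 (limma adjusted p = 0.0492).

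Of the kinases that carry TLR signals toward *Il10*, all but *Mapk14* rose with LPS on their brightest probe, and 3 fell with the inhibitor. *Mapkapk2*, the kinase MK2 downstream of p38, rose by 2.68 and fell by 1.30. *Rps6ka5* and *Rps6ka4*, which encode the kinases MSK1 and MSK2 that phosphorylate CREB, rose by 1.24 and 0.61 and fell by 1.81 and 0.41 (limma adjusted p = 0.0221 and 0.0497). *Map3k8*, the kinase TPL-2 upstream of ERK, rose by 2.72 and differed by −0.39 with the inhibitor, which did not pass, and *Mapk14*, which encodes p38α, passed in neither comparison on its brightest probe and rose by 0.52 with LPS on a dimmer one. *Nfkb1*, the gene of p105 and p50, rose by 3.16 and fell by 1.45.

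The other 5 regulators called in LPS+inhibitor minus LPS were higher with the inhibitor. *Dusp1*, a phosphatase that turns off p38, did not pass with LPS (0.17) and rose by 2.36 with the inhibitor, or 5.12-fold (standard error 0.24, limma adjusted p = 0.0212). *Ahr*, the aryl hydrocarbon receptor, rose by 1.44 with LPS and by a further 2.21 with the inhibitor (limma adjusted p = 0.0107). *Bhlhe40*, a repressor of *Il10*, fell by 1.71 with LPS and rose by 1.95 with the inhibitor (limma adjusted p = 0.0475). *Atf1* fell by 0.65 and rose by 1.22, with its other probes higher with the inhibitor too, and *Cebpb* rose by 0.94 with the inhibitor (limma adjusted p = 0.0307). *Creb1* rose and *Sp1* fell with LPS (1.58 and −0.93) and neither passed with the inhibitor, as was also true of *Zfp36* (−0.11). The other probes of *Creb1* passed in neither comparison, and a dim probe, well above background on the untreated arrays alone, differed by −1.12 with LPS. *Prdm1* passed in neither comparison.

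**Figure D3:**
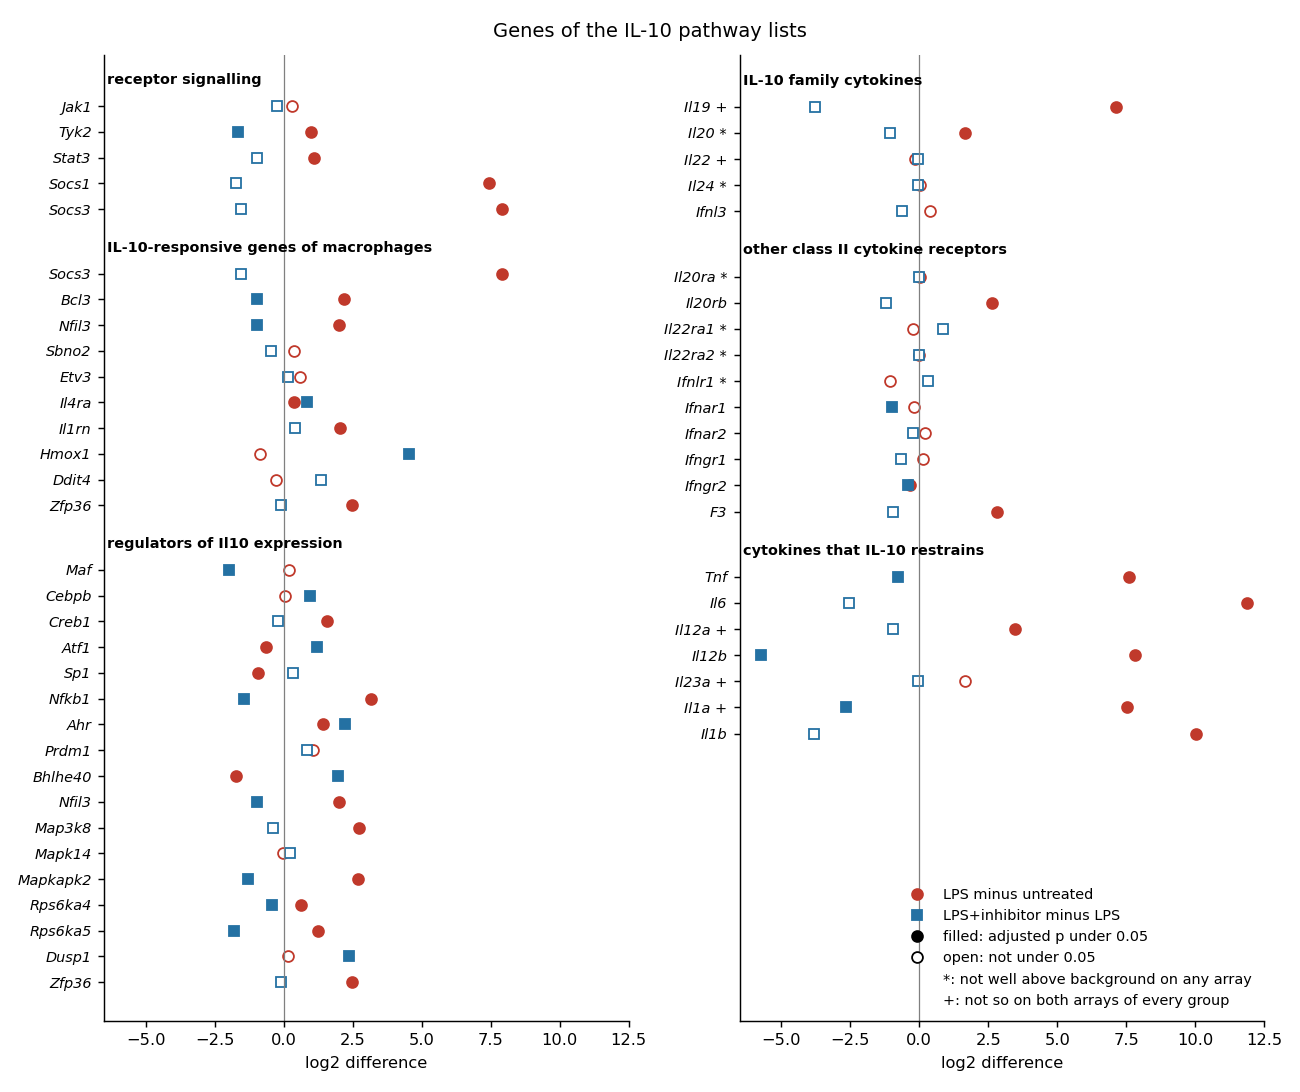
Log2 differences for genes of the IL-10 pathway lists, by list and not for every listed gene, with circles for LPS minus untreated and squares for LPS+inhibitor minus LPS; filled symbols have a limma adjusted p under 0.05, and marks after names show probes not well above background. With the inhibitor *Maf* (−1.97), *Tyk2* (−1.67), and *Rps6ka5* (−1.81) lie to the left while *Hmox1* (4.53), *Dusp1* (2.36), and *Ahr* (2.21) lie to the right.

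Among the IL-10 family cytokines, *Il19*, which lies next to *Il10*, was called with LPS at a level well above background. On the log2 scale its brighter probe read 10.07 and 9.75 on LPS arrays and 5.26 and 6.99 on LPS+inhibitor arrays, and on the untreated arrays (3.27 and 2.28) it was not well above background. With LPS it was at least 63.9-fold higher (limma adjusted p = 0.00898), and at least 41.0-fold by its other probe. For this bound, an untreated array counted with its own signal or, if that was lower, with the weakest signal that any probe well above background gave there. With the inhibitor *Il19* differed from LPS by −3.78, which did not pass (limma adjusted p = 0.0593). *Il20* was also called higher with LPS, but, like *Il24*, it stayed under that mark on all 6 arrays, and its other probe (0.45) did not pass. *Il22* was well above background on 1 untreated array, and *Ifnl3* passed in neither comparison (0.40 and −0.63). The list thus held 2 calls among 5 measured genes with LPS, and no call with the inhibitor (medians 0.40 and −0.63).

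Of 10 other receptor chains of the class II cytokine family, *Il20ra*, *Il22ra1*, *Il22ra2*, and *Ifnlr1* were not well above background on any array. With LPS 2 chains rose and 1 fell, and with the inhibitor 2 fell (medians 0.01 and −0.32). *Il20rb* rose by 2.63 and *F3*, the gene of tissue factor, by 2.80 with LPS. *Ifngr2* fell by 0.32 with LPS and by 0.41 with the inhibitor, and the first of these values turned to 0.16 under 75th percentile scaling. That scaling moved the median difference with LPS to 0.40 over all gene names and to 0.083 over genes well above background on every array. The probes of *Ifnar1* disagreed with LPS, where the brightest differed by −0.17 and the others rose by 1.63 and 1.83, and all 3 fell with the inhibitor (by 0.97, 1.12, and 0.95). *Ifnar2* and *Ifngr1* passed in neither comparison (0.19 and −0.23, and 0.12 and −0.64).

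Of 7 cytokines that IL-10 restrains, 6 rose with LPS and 3 fell with the inhibitor (medians 7.61 and −2.55). *Tnf*, *Il6*, *Il1b*, and *Il12b* are shown by the study from these arrays, so for them the count is not independent evidence of direction. *Il1a*, not well above background in untreated cells, was at least 139-fold higher with LPS and fell by 2.65 with the inhibitor (limma adjusted p = 0.0299). *Il12a*, also not well above background in untreated cells, rose with LPS (limma adjusted p = 0.00571) and differed by −0.95 with the inhibitor, where 1 of 2 arrays was well above background. *Il23a* was well above background on 1 LPS+inhibitor array alone.

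Neighbors on the chromosome were read from the RefSeq table. *Il10* lies on chromosome 1 between *Il19* and *Mapkapk2*, with *Il20* and *Dyrk3* next to these. *Dyrk3*, a protein kinase, fell by 1.92 with LPS and rose by 1.53 with the inhibitor (limma adjusted p = 0.0165 and 0.0470), the reverse of *Mapkapk2*. *Il10rb* lies on chromosome 16 among interferon receptor genes, between *Ifnar2* and *Ifnar1*, with *Olig1* and *Ifngr2* beyond. *Il10ra* on chromosome 9 has *BC049352* and *Tmprss13* beside it and *Tmprss4* and *Fxyd6* beyond, of which *BC049352* had no probe by that name and the others passed in neither comparison.

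The genes with the nearest profiles were found by the Euclidean distance between log2 signals over the 6 arrays, after subtracting the mean of each probe, among 11655 genes named from RefSeq that were well above background on every array. For *Il10* they were *Htra1* (distance 0.59), *Slc25a22* (0.65), *Rras2* (0.72), *Clec2d* (0.72), and *Ikbke* (0.73). *Htra1*, which encodes a secreted serine protease, read 9.12 and 7.87 on untreated arrays (log2), 11.76 and 10.63 on LPS arrays, and 10.05 and 9.35 on LPS+inhibitor arrays. Replicate 1 was again the higher in each group, which a choice by nearness over these same arrays favors. *Htra1* passed in none of the 3 comparisons (limma adjusted p = 0.0670, 0.300, and 0.390). For *Il10ra* the nearest were *BC037032* (0.16), *Usf3* (0.21), *Itsn1* (0.21), *Stox2* (0.22), and *Madd* (0.22). For *Il10rb* they were *Mrps12* (0.12), *Sec24c* (0.13), *Mxd4* (0.13), *Abcg2* (0.14), and *Morn1* (0.14). Distances are smaller for genes that vary less, so they are not compared between the 3 genes.

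The replicates differed in markers of other cell types, and *Il10* differed with them. *Il10* was higher in replicate 1 by 0.62 among untreated arrays, 0.98 among LPS arrays, and 0.46 among LPS+inhibitor arrays, while for *Il10ra* these differences were 0.34, −0.05, and 0.22 and for *Il10rb* 0.12, −0.17, and 0.13. Of 15601 genes that were well above background on every array and kept a spot on each after outlier spots were left out, 24.9% were higher in replicate 1 of every group, and 43 genes were higher by at least as much as *Il10* in each group. B-cell markers were among the genes that differed most between replicates. *Cd79a*, well above background on all 6 arrays, was higher in replicate 1 by 1.02, 1.66, and 1.66. *Ms4a1* was well above background on the 3 replicate 1 arrays and LPS replicate 2, and *Pax5* on the LPS+inhibitor arrays alone, where it was at least 1.39-fold higher than with LPS (limma adjusted p = 0.0244), a call lost in all 6 fits that left out 1 array (0.90 to 1.10 on the log2 scale). The other *Pax5* probe, well above background on no array, differed by 0.06.

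*Cd79a* read 6.49 and 5.47 on untreated arrays (log2), 7.67 and 6.00 on LPS arrays, and 7.16 and 5.50 on LPS+inhibitor arrays, replicate 1 first. It ordered the groups as *Il10* did within each replicate number, although *Cd79a* and *Ms4a1* passed in neither comparison. The part of B cells in the values of *Il10* was not tested. The summed signal of mast cell markers was also higher in replicate 1 (172 and 87.1, 93.3 and 40.6, and 89.4 and 36.1). That sum was led by *Kit*, the brightest of 3 and the only one well above background on all 6 arrays. *Cpa3* was well above background on 2 arrays and *Mcpt4* on none. The 4 neutrophil markers were well above background on all arrays, with sums of 4436 and 4145, 4123 and 3879.9, and 4524 and 4518 led by *Elane*. *Ly6g* and *Mpo* were higher in replicate 1 of every group, and *Camp* and *Elane* in replicate 2.

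Of 5 T-cell markers, *Cd4* (the brightest) and *Cd3e* were well above background on all arrays and *Cd3g* and *Cd8a* on none, with sums between 1722 and 2357. The other *Cd4* probe, printed as 10 spots, was well above background on no array (log2 means 3.20, 3.42, and 2.93 in untreated, LPS, and LPS+inhibitor cells). NK-cell markers summed to between 31.0 and 203 with the highest value on LPS replicate 2, where *Klrb1c* read 7.46 (log2) on its brighter probe. The dimmer *Klrb1c* probe read 2.24 on that array and was well above background on no array. Dendritic cell markers summed to between 28.2 and 122, with *Flt3* and *Xcr1* not well above background on any array and *Zbtb46* well above it on the LPS and LPS+inhibitor arrays. *Zbtb46* was at least 5.65-fold higher with LPS than in untreated cells (limma adjusted p = 0.00435). It was at least 4.41-fold higher in LPS+inhibitor than in untreated cells (limma adjusted p = 0.00806), a call lost without either untreated array (2.13 and 2.15 on the log2 scale). Its dimmer probe passed in neither of these comparisons. The 3 fibroblast markers were not well above background on any array (sums 18.2 to 30.9, *Col3a1* brightest), and the erythroid marker *Klf1* was well above it on 1 array.

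**Figure D4:**
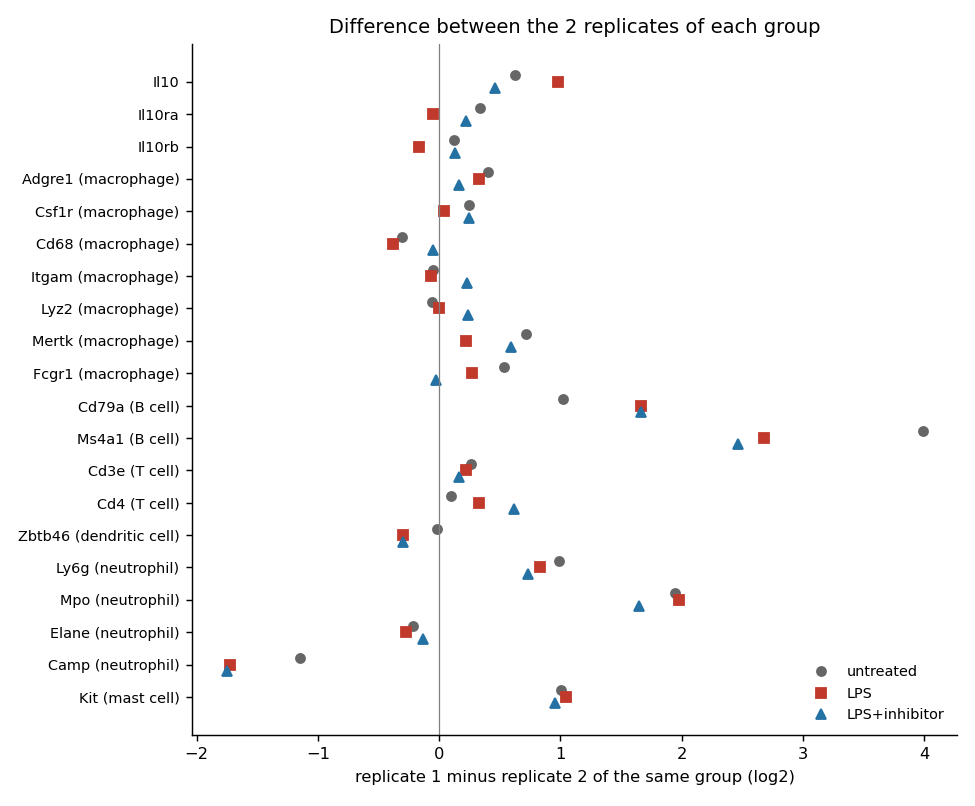
Replicate 1 minus replicate 2 on the log2 scale within untreated (circles), LPS (squares), and LPS+inhibitor cells (triangles), for *Il10*, *Il10ra*, *Il10rb*, and the cell type markers well above background on at least 4 arrays. *Il10* lies at 0.62, 0.98, and 0.46, and *Cd79a* at 1.02, 1.66, and 1.66, while *Camp* lies below 0 in every group.

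**Figure D5:**
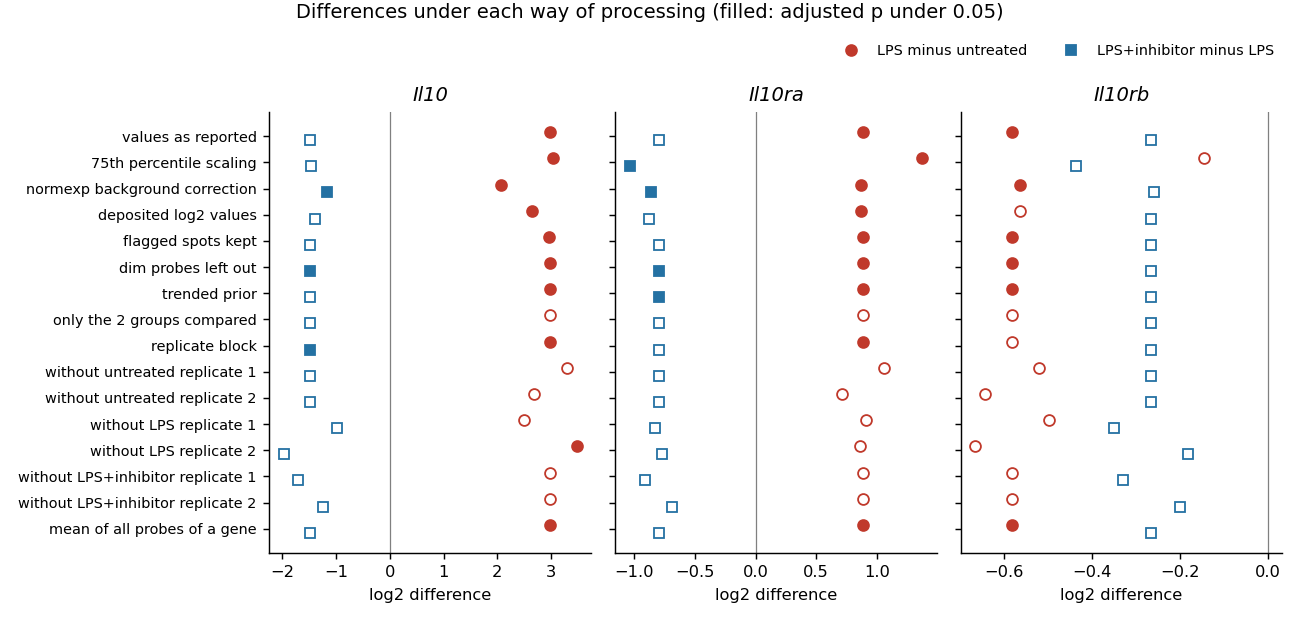
Log2 differences of the 3 genes under each way of processing, with circles for LPS minus untreated, squares for LPS+inhibitor minus LPS, and filled symbols where the limma adjusted p is under 0.05. *Il10* stays between 2.07 and 3.47 with LPS and between −1.97 and −0.99 with the inhibitor, and *Il10rb* moves to −0.14 with LPS under 75th percentile scaling.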

How the data were processed

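The authors deposited scanner files of 6 one-color arrays, with spot intensity values from Agilent Feature Extraction 10.7.3.1 that were not normalized between arrays, and a table of quantile-normalized log2 values. Here the background-corrected intensity was log2-transformed and quantile-normalized over spots that were not controls. Outlier spots (119 to 172 per array) were left out, and spots of a probe were averaged. limma 3.58.1 in R 4.3.3 was fitted to all 3 groups (3 residual and 1.05 prior degrees of freedom), with Benjamini-Hochberg adjustment over 55680 probes and a threshold of 0.05. Names came from the RefSeq table of GRCm38.p6 for 31220 of 55681 probes and from the files otherwise. Genes named were the 3 genes, the listed genes and markers, the 5 nearest profiles, and 2 neighbors on each side. The members and lists were chosen with earlier results of these data known. Alternatives covered scaling, background correction, the deposited table, dim probes, outlier spots, the prior, fits of 2 groups, the replicate number, each array left out, and averaging over probes. The number of arrays limits precision.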

Additional observations from a re-analysis of the deposited data

How the results depend on the processing

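Of 135 comparisons of the 3 genes with their values under an alternative, 97 kept direction and side of the threshold, 26 kept direction but lost the call, 9 gained one, and 3 changed sign. With only the 2 groups compared, the calls with LPS were lost for *Il10* (2.98), *Il10ra* (0.88), and *Il10rb* (−0.58). The pathway genes called with the inhibitor went from 21 to 0 by limma. Of them 34 had an unadjusted limma p under 0.05 in that fit, against 8004 of all gene names. In LPS+inhibitor minus LPS, calls were gained for *Il10* with normexp correction (−1.18) or dim probes left out (−1.48), and for *Il10ra* with 75th percentile scaling (−1.04), normexp correction (−0.86), dim probes left out (−0.80), or a trended prior (−0.80). Against untreated cells with LPS+inhibitor, *Il10* gained a call with dim probes left out (1.50).

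*Il10rb* lost its call with LPS under 75th percentile scaling (−0.14) and in the deposited values (−0.56). The deposited values turned *Il10ra* in LPS+inhibitor minus untreated to −0.010. With 75th percentile scaling, which moved the median of all gene names with LPS to 0.40, *Ifngr2* turned to 0.16. The cause was not tested. Under that scaling 12150 gene names were higher and 4048 lower with LPS, where quantile normalization gave 2775 and 4443, and 12182 were higher and 3354 lower in LPS+inhibitor minus untreated, where it gave 2144 and 3031.

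With 1 array left out, where the lone array is assumed to vary like the other groups, *Il10* with LPS ranged from 2.50 to 3.47, *Il10ra* from 0.71 to 1.05, and *Il10rb* from −0.66 to −0.50. In LPS+inhibitor minus untreated, *Il10ra* ranged from −0.0835 to 0.26 and *Il10rb* from −0.91 to −0.78. The pathway genes called ranged from 16 to 26 with LPS and from 0 to 15 in LPS+inhibitor minus LPS. Of 779 calls of pathway genes under the alternatives, 567 were kept, 211 were lost, and 1 changed sign.

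The arrays share a replicate number and no stated source. Deviations from the group means correlated between same-numbered arrays at 0.47, 0.40, and 0.42 across probes. With the replicate number as a block, the pathway genes called in LPS+inhibitor minus LPS went from 21 to 13, *Il10* passed in LPS+inhibitor minus LPS (−1.48) and in LPS+inhibitor minus untreated (1.50), and *Il10rb* with LPS (−0.58) did not. Signal over background limits the dim probes.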
